A study of Mus musculus with 9 samples.

Results

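The genes described here are the extracellular matrix and integrin genes of N2A cells, a mouse neuroblastoma line. They were taken by symbol and comprise collagens, laminin chains, the nidogens, Fn1, Sparc, fibulins, integrin alpha and beta subunits, matrix metalloproteinases (Mmp), ADAMTS proteases and tissue inhibitors of metalloproteinases (Timp). Of 21553 genes with counts, 77 carried such a symbol and reached 10 counts in at least 1 of the 9 libraries; 133 symbols match at any count. The members just inside this limit were Adamts17, with a highest count of 11, and Fbln5, with 12. Just outside it lay Col9a2 and Col10a1, with 9 each. The symbols of Col4a3bp, Itgb1bp1, Itgb1bp2 and Itgb3bp fit the pattern, but these 4 genes encode neither matrix proteins nor integrin subunits, which leaves 73. Itgav, an integrin alpha subunit with no digit in its symbol, was not matched.

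PolyA RNA was sequenced 48 h after transfection of siRNA pools. In the first experiment there was 1 library each for knockdown of Mbnl1 and Mbnl2 together (siMbnl), knockdown of Nacc1 (siNacc1) and a non-targeting pool (siNT). In the second experiment there were 2 libraries each, lettered a and b, for knockdown of Srrm4 (siSrrm4), knockdown of Zfp871 (siZfp871) and a non-targeting pool (siNT). All 6 groups are the same cell line and went through the same kind of transfection. Separate cultures are not stated for the libraries a and b, so p-values measure only the spread between these libraries, which may be technical. RNA was extracted with one of 2 kits, and which library had which kit is not stated. Srrm4 and the Mbnl proteins regulate splicing, Srrm4 acting mainly on short exons of neural genes, whereas Nacc1 encodes a nuclear BTB-domain regulator of transcription and Zfp871 a zinc finger protein.

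Cells anchor to a matrix that they secrete. Basement membranes are sheets in which a network of type IV collagen, mainly of Col4a1 chains with Col4a2 chains, is linked to laminin trimers through nidogen and perlecan. Integrins, each an alpha subunit paired with a beta subunit, bind laminins, collagens or fibronectin outside the cell and the actin cytoskeleton inside it. Metalloproteinases and ADAMTS proteases cut matrix proteins, and TIMPs inhibit them. Neuroblastoma cells derive from the sympathetic lineage of the neural crest, and neural crest cells use integrins to migrate on laminin and fibronectin.

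Total counts were 44186088 to 63715449 per library. Values of a gene across libraries are counts scaled to library size (CPM), the sizes normalized by TMM within each experiment separately. Every knockdown had less of its target: Srrm4 was at 28.3 and 26.1 CPM in siSrrm4 against 66.8 and 96.7 in siNT, and Zfp871 at 7.17 and 5.08 in siZfp871 against 17.6 and 26.2 in siNT. In the first experiment Mbnl1 was at 45.2 and Mbnl2 at 18.2 CPM in siMbnl against 124 and 65.7 in siNT, and Nacc1 at 52.0 in siNacc1 against 208 in siNT. Mbnl1 was also at 82.7 CPM in siNacc1 (log2 fold change −0.59 against siNT). Srrm4 was also at 44.9 and 53.7 CPM in siZfp871, below both siNT libraries (log2 fold change −0.73, SE 0.19, adjusted p = 0.0990, not called). The related gene Srrm3 was at 24.2 and 23.4 CPM in siSrrm4 against 35.6 and 37.5 in siNT. This difference was called (log2 fold change −0.62, SE 0.11, edgeR quasi-likelihood test, adjusted p = 0.0341). All 12 neuroblastoma markers (Hand2, Gata3 and others) reached 10 counts, and they summed to 2514 to 4108 CPM. Of 11 mesenchymal markers 5 reached 10 counts and 3 (Twist1, Twist2, Prrx1) were at 0 in all 9 libraries. The summed CPM of 6 epithelial markers was 25.2 to 40.5, of 7 Schwann and glial markers 8.12 to 24.3, of 5 endothelial markers 1.45 to 4.66 and of 5 immune markers 0.281 to 1.55.

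A small part of the members stood above the rest in level. To compare genes, levels per length were taken from cRPKM, the authors' deposited level of reads scaled to gene length and depth: 1 value for each library of the first experiment and the authors' mean for each group of the second, 6 values per gene. The median cRPKM was at least 10 for 12 members, from 1 to 10 for 17, and under 1 for 48. Itgb1, the beta subunit shared by most laminin, collagen and fibronectin receptors, had the highest median level, 254 cRPKM, with a range of 196 to 304. It was followed by Fbln1, a glycoprotein of basement membranes and elastic fibres, at a median of 68.5 cRPKM, Col4a2 at 62.4, the laminin receptor subunit Itga6 at 60.6 and fibronectin (Fn1) at 57.1. The ranges of these 4 genes overlap, so their order is not beyond their spread.

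Within most classes a few chains led. Among laminin chains the gamma chain Lamc1 ranged from 37.5 to 52.4 cRPKM, while the alpha chain with the highest median, Lama4, ranged from 2.12 to 3.88 and the beta chain with the highest median, Lamb2, from 0.43 to 0.955. Lamb1 was at 0.07 cRPKM or lower in all 6 values. Of the 5 fibrillar collagens, Col1a1 was at 0.04 cRPKM or lower throughout and Col11a2, with the highest median, ranged from 0.67 to 1.40. Itga6 stood above the other alpha subunits matched by symbol in all 6 values: Itga1, a collagen receptor subunit, ranged from 2.51 to 9.235 cRPKM, and the other 8 stayed at or under 3.20. Itgav, which was not matched, ranged from 7.225 to 10.73 cRPKM, also below Itga6. Mmp17, Mmp11 and Mmp15 led the metalloproteinases, with medians of 13.4, 9.01 and 8.54 cRPKM.

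**Figure D1:**
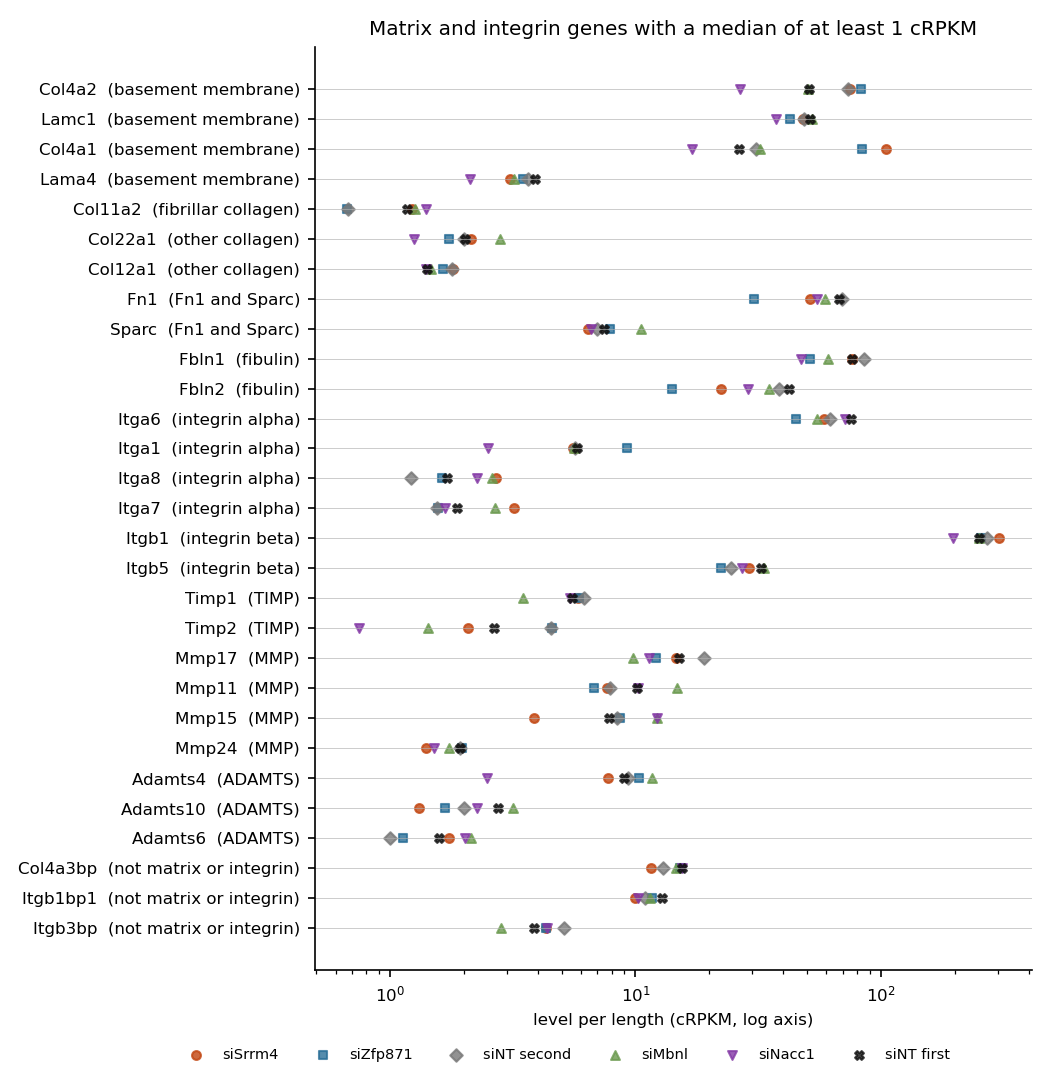
Levels (cRPKM, logarithmic x axis) of the 29 members with a median of at least 1 cRPKM, in rows by role from basement membrane at the top. Each symbol is 1 of 6 values, the authors' mean of a group in the second experiment or 1 library of the first; Itgb1 lies at 196 to 304 cRPKM, and Col4a1 at 105.2 in siSrrm4 and 83.7 in siZfp871, above its other 4 values.

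Col4a1 was the member called in both knockdowns of the second experiment, and the one member with a called exon. It encodes the alpha chain that forms most of the type IV collagen trimers with its partner chain Col4a2. It was at 592 and 793 CPM in siSrrm4, 512 and 592 in siZfp871, and 192 and 214 in siNT. All 4 knockdown libraries lay above both siNT libraries. The log2 fold change was 1.77 (SE 0.16, adjusted p = 0.0184) for siSrrm4 against siNT and 1.44 (SE 0.16, adjusted p = 0.0227) for siZfp871 against siNT, comparisons that share their siNT libraries. siZfp871 against siSrrm4 was not called for Col4a1 (log2 fold change −0.33, SE 0.16, adjusted p = 0.227).

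Col4a2, which lies head to head with Col4a1, was not called in either knockdown. It was at 414 and 544 CPM in siSrrm4, 466 and 601 in siZfp871, and 402 and 542 in siNT, with overlapping groups (log2 fold change 0.02, SE 0.21, adjusted p = 0.960 for siSrrm4, and 0.18, SE 0.21, adjusted p = 0.678 for siZfp871). The ratio of Col4a1 to Col4a2 CPM within a library was 1.43 and 1.46 in siSrrm4, 1.10 and 0.985 in siZfp871, and 0.479 and 0.395 in siNT. In the first experiment that ratio was 0.651 in siMbnl, 0.653 in siNacc1 and 0.530 in siNT. The 4 siSrrm4 and siZfp871 libraries had the 4 highest ratios of the 9.

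The RefSeq windows from 250 bases before to 50 bases after each start site (GRCm38.p6, minus strand chr8:11312777-11313076 for Col4a1 and plus strand chr8:11312555-11312854 for Col4a2) are shown because these genes share 1 promoter region but only Col4a1 was called. Capitals mark the 78 bases that both windows hold, on opposite strands; the start sites are 21 bases apart.
Col4a1: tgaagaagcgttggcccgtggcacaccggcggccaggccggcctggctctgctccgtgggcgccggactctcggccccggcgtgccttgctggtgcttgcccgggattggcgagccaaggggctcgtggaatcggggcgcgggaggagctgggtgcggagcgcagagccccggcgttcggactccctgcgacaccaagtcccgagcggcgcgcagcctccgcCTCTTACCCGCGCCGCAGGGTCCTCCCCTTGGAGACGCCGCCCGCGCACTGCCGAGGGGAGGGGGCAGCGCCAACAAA
Col4a2: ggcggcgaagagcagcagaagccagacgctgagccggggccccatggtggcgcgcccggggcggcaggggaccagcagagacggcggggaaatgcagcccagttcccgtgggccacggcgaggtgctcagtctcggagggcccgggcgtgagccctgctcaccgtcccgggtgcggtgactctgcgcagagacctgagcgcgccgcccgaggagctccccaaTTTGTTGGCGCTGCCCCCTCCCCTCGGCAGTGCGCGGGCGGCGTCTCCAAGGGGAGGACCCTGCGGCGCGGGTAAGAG
Their GC content was 74.0% and 73.7%, against a median of 52.7% over the 32851 windows of the table. Each window held 1 match to CCAAT, searched on both strands, as did 37.4% of all windows at least once. Neither held TATAAA on either strand, which 13.6% of all windows did.

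Within Col4a1 a microexon of 17 nt changed inclusion. The percent spliced in (PSI) is the share of reads over the exon that include it. At chr8:11204536-11204552 (mm9, the build given in the submitters' processing notes), PSI was 3.17 and 1.59 in siSrrm4, 6.33 and 7.73 in siZfp871, and 22.3 and 28.5 in siNT. All 4 knockdown libraries were below both siNT libraries, and both siSrrm4 libraries below both siZfp871 libraries. For siSrrm4 the difference was −23.0 points (edgeR quasi-likelihood test on inclusion and exclusion reads, adjusted p = 0.0164, 312 to 1746 reads per library). For siZfp871 it was −18.4 points and was not called (adjusted p = 0.566), although the authors' deposited table marks this exon as differential in both knockdowns. Of 53 member exons tested in 18 genes this was the 1 called in siSrrm4 against siNT, where 0.123% of all 20266 tested exons were called. No member exon was called in siZfp871 against siNT or in siZfp871 against siSrrm4 (0% of all exons in each), with 2 and 6 member exons at an unadjusted p under 0.05.

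This call rests on all of the libraries. It was lost when any 1 library of siSrrm4 or siNT was left out (adjusted p = 0.117 to 0.439, differences of −26.2 to −19.9 points) and with limma on the logit of PSI (adjusted p = 0.0612).

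The Col4a1 exon matches exon 50 of 53 of a transcript that GENCODE M21 classes as subject to nonsense-mediated decay, the degradation of mRNAs whose stop codon lies well before the last exon junction. Since 17 is not a multiple of 3, inclusion shifts the reading frame. The annotated stop codon then falls in exon 51, 256 bases before the last junction. The stretches below (GRCm38, minus strand) show both forms around the splice junctions, with capitals for the exon and for the stop codon that inclusion brings into frame.
Included: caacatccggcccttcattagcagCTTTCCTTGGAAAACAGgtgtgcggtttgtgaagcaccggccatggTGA
Skipped: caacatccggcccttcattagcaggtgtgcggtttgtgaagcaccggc
Reads that skip the exon were higher in both knockdowns of the second experiment than in siNT, and reads that include it were lower in siSrrm4. Scaled as CPM but to the raw total counts, without TMM, there were 23.9 and 28.1 exclusion reads in siSrrm4, 18.2 and 20.9 in siZfp871, and 5.31 and 5.16 in siNT. Inclusion reads came to 0.782 and 0.454 on this scale in siSrrm4, 1.23 and 1.75 in siZfp871, and 1.53 and 2.06 in siNT. Inclusion reads were below both siNT libraries in siSrrm4, and overlapped siNT in siZfp871. Whether the change in exon inclusion and the change in the level of Col4a1 are linked was not tested. Srrm4 itself was at a lower level in siZfp871 than in siNT, as given above, and its part in the siZfp871 values was not tested. Srrm3 was at a lower level in siSrrm4 than in siNT, and its part in the siSrrm4 values was not tested.

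In the first experiment the exon was included at a PSI of 30.3 in siMbnl (95% Clopper-Pearson interval 25.05 to 36.0), 17.3 in siNacc1 (12.01 to 23.3) and 22.1 in siNT (17.5 to 27.3). Both knockdown intervals overlapped that of siNT. These intervals, like all others here, cover counting error only.

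**Figure D2:**
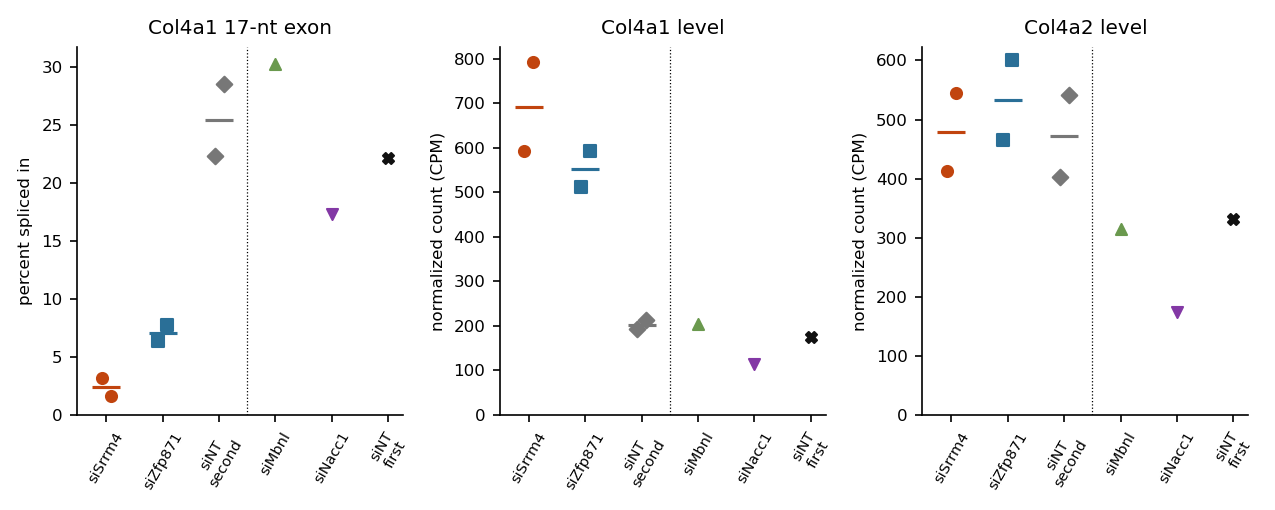
PSI of the 17-nt Col4a1 exon (left, percent), Col4a1 (middle, CPM) and Col4a2 (right, CPM) by group, 1 point per library; horizontal lines are means of the 2 libraries of a group, and the dotted line separates the second experiment (left of it) from the first. PSI lies at 1.59 to 7.73 in siSrrm4 and siZfp871 and at 17.3 to 30.3 elsewhere, Col4a1 is highest in siSrrm4 and siZfp871, and Col4a2 overlaps between the groups of the second experiment.

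Knockdown of Srrm4 went with higher counts of 4 members and lower counts of 2. Among the 65 members that passed the filter on low counts, 9.23% were called, against 4.7% of all 12378 genes tested (called higher 1.41%, called lower 3.29% of all genes). Besides Col4a1 the higher genes were the collagen Col28a1 and the integrin subunits Itga7 and Itga8; the lower ones were Timp2 and Mmp15. The median log2 fold change of the members was −0.05, against 0.00 over all genes, and 29 of the 65 were above 0. The siSrrm4 and siNT libraries did not overlap for 50.8% of the members, against 53.7% of all genes. A log2 fold change of 1 or more in either direction was seen in 12 of the 65, against 498 of all 12378 genes (4.02%). The 12 include the 6 called members, and also members with few counts. Among the latter, Timp4 had 10 to 27 and Itga2b 8 to 20 counts in the siSrrm4 and siNT libraries. The part of level in this difference was not tested.

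Col28a1, a collagen known from peripheral nerve, was the member with the largest change. It was at 3.05 and 4.55 CPM in siSrrm4 against 0.518 and 0.522 in siNT, with both siSrrm4 libraries above both siNT libraries (log2 fold change 2.86, SE 0.33, adjusted p = 0.0218). In siZfp871 it was at 0.536 and 0.775 CPM and was not called (adjusted p = 0.629). Col2a1, the cartilage fibril collagen, was at 1.39 and 1.55 CPM in siSrrm4 against 0.453 and 0.522 in siNT, and Col20a1 at 2.76 and 3.06 in siSrrm4 against 1.32 and 1.04 in siNT. Neither overlapped siNT and neither was called (adjusted p = 0.0944 and 0.0513). All 3 of these collagens had a median under 1 cRPKM.

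Both integrin subunits called are partners of Itgb1. Itga7, a laminin receptor subunit prominent in muscle, was at 11.9 and 13.5 CPM in siSrrm4 against 5.83 and 6.51 in siNT (log2 fold change 1.04, SE 0.16, adjusted p = 0.0280). Itga8, whose receptor binds nephronectin and fibronectin, was at 16.5 and 14.6 CPM in siSrrm4 against 6.63 and 7.43 in siNT (1.14, SE 0.16, adjusted p = 0.025). In each case both siSrrm4 libraries were above both siNT libraries. Itga8 shares 372 of its 7368 exon bases with an antisense gene, and whether the counting used strand is not stated. The other 8 alpha and all 5 tested beta subunits were not called; Itgb1 was at 1069 and 1224 CPM in siSrrm4 against 988 and 1056 in siNT (adjusted p = 0.354).

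The protease and inhibitor calls pointed down. Timp2, an inhibitor that also assists the activation of Mmp2, fell to 7.47 and 7.67 CPM in siSrrm4, against 14.9 and 18.3 in siNT (log2 fold change −1.13, SE 0.15, adjusted p = 0.025). Mmp15, a membrane-anchored metalloproteinase, fell to 15.7 and 17.5 CPM in siSrrm4, against 31.0 and 41.5 in siNT (−1.13, SE 0.21, adjusted p = 0.0395). For both genes the siSrrm4 libraries were below both siNT libraries. Timp3 was at 4.57 and 9.46 CPM in siSrrm4 against 2.89 and 4.09 in siNT, without overlap, and was not called (1.01, SE 0.36, adjusted p = 0.154). Among 7 tested metalloproteinases and 5 tested ADAMTS genes, Mmp15 was the 1 call.

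The fit without the siZfp871 libraries called 0 of the 6 members (adjusted p = 0.0810 each; 0 of all genes). Leaving out siSrrm4 library a kept Col4a1 and Col28a1, and leaving out siSrrm4 library b, siNT library a or siNT library b left 0 calls. Under an FDR of 0.05 for siSrrm4 there are 10 of all 77 members in the authors' deposited table. The share of all genes under that FDR was not computed, so this count is not a result about the members.

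In siZfp871 against siNT, Timp3, Col4a1 and Lamb2 rose and Fn1 and Fbln1 fell. These 5 are 7.69% of the 65 members tested, against 2.89% of all genes (called higher 0.751%, called lower 2.14%). The members' median log2 fold change was 0.00, against −0.01 over all genes, and 32 were above 0. In 8 of the 65 members the log2 fold change was 1 or more in either direction, against 448 of all 12378 genes (3.62%). The 8 include Fn1 and Col4a1, and also members with few counts. Among the latter, Timp4 had 9 to 27 and Col6a6 6 to 26 counts in the siZfp871 and siNT libraries. Groups did not overlap for 43.1% of the members and 50.5% of all genes.

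Fibronectin, a main ligand of integrins in the matrix, was at 264 and 233 CPM in siZfp871 against 540 and 588 in siNT (log2 fold change −1.18, SE 0.10, adjusted p = 0.0192). Fbln1 was at 181 and 193 CPM in siZfp871 against 314 and 304 in siNT (−0.72, SE 0.09, adjusted p = 0.0232). Both genes are among the 5 members with the highest median level, and in both the siZfp871 libraries were below both siNT libraries. Fbln2, a second fibulin, was at 79.0 and 52.6 CPM in siZfp871 against 195 and 162 in siNT, also without overlap, but missed the threshold (−1.44, SE 0.30, adjusted p = 0.0643).

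On the higher side, Timp3, the TIMP that binds to the matrix, was at 13.1 and 15.1 CPM in siZfp871 against 2.89 and 4.09 in siNT (log2 fold change 2.01, SE 0.37, adjusted p = 0.0485). Both siZfp871 libraries were above both siNT libraries. Timp3 lies within Syn3 on the opposite strand and shares 1733 of its 8144 exon bases with it; Syn3 was at 2.64 and 3.32 CPM in siZfp871 against 4.45 and 4.15 in siNT. Lamb2, a laminin beta chain known from synaptic and kidney basement membranes, was at 5.14 and 5.54 CPM in siZfp871 against 2.25 and 2.55 in siNT (1.16, SE 0.20, adjusted p = 0.0428). Lama2, a laminin alpha chain, was at 0.357 and 0.576 CPM in siZfp871 against 0.669 and 1.44 in siNT and was not called (adjusted p = 0.316).

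No integrin subunit was called in siZfp871 against siNT. Itga1 was at 55.4 and 54.6 CPM in siZfp871 against 38.6 and 28.8 in siNT (log2 fold change 0.71, SE 0.16, adjusted p = 0.0774), and Itga6 at 213 and 174 in siZfp871 against 258 and 273 in siNT (−0.46, SE 0.11, adjusted p = 0.0927). Neither gene's groups overlapped.

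No marker of another cell type was called in siZfp871 against siNT. The 11 mesenchymal markers summed to 31.9 and 104 CPM in siZfp871, 4.44 and 8.86 in siSrrm4, and 6.20 and 17.3 in siNT. Most of the siZfp871 sum was the smooth muscle actin Acta2, which was at 29.1 and 102 CPM in siZfp871 against 3.54 and 14.3 in siNT and was not called; the median log2 fold change of the 5 mesenchymal markers tested was 0.07. Of 11 neuroblastoma markers tested, 3 fell in siZfp871 (Dbh, Phox2a and Stmn2), against 2.14% of all genes, and 1 in siSrrm4 (Hand2), against 3.29% of all genes. The part of these values in the matrix results was not tested.

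The 4-library comparison of siZfp871 and siNT kept 4 of the 5 calls, losing Lamb2 (adjusted p = 0.0733) and adding Fbln2 (adjusted p = 0.0471). Leaving out siNT library a kept Fn1 only, and leaving out siNT library b or either siZfp871 library left 0 calls. Under an FDR of 0.05 for siZfp871 there are 7 of all 77 members in the authors' deposited table. Here too the share of all genes was not computed, so the count is not a result about the members.

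**Figure D3:**
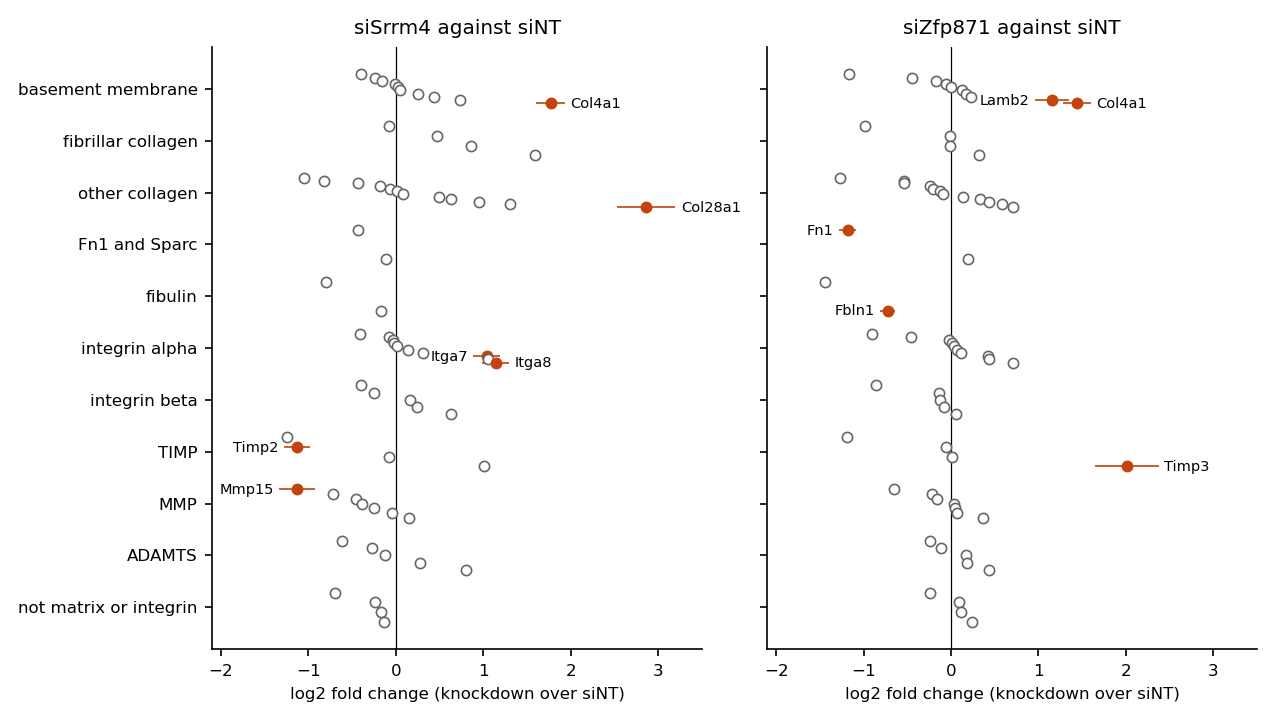
Log2 fold change of the 65 tested members in siSrrm4 against siNT (left) and siZfp871 against siNT (right), 1 point per gene in rows by role; filled, named points are called at an adjusted p under 0.05, with bars of 1 SE. Col28a1 reaches 2.86 in siSrrm4 and Timp3 2.01 in siZfp871, and Col4a1 is filled in both panels.

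The knockdowns of the second experiment differed from each other at 13 members. In siZfp871 against siSrrm4, 20% of the 65 members were called, against 11.1% of all genes, 6 higher (5.53% of all genes) and 7 lower (5.57%). The groups did not overlap for 60% of members and 59.4% of all genes. A log2 fold change of 1 or more in either direction was seen in 11 of the 65, against 687 of all 12378 genes (5.55%). The 11 include Timp2 and Mmp15, and also members with few counts, such as Col2a1 with 18 to 93 in these libraries. The members' median log2 fold change was −0.11, against −0.01 over all genes.

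Several of these genes had been called in siSrrm4 against siNT, a comparison that shares the siSrrm4 libraries. Col28a1 was at 0.536 and 0.775 CPM in siZfp871 against 3.05 and 4.55 in siSrrm4 (log2 fold change −2.53, SE 0.33, adjusted p = 0.0124). Itga7 was at 5.97 and 6.51 CPM in siZfp871 against 11.9 and 13.5 in siSrrm4 (−1.02, SE 0.16, adjusted p = 0.0179), and Itga8 at 10.2 and 8.72 in siZfp871 against 16.5 and 14.6 in siSrrm4 (−0.72, SE 0.16, adjusted p = 0.0382). In all 3 both siZfp871 libraries lay below both siSrrm4 libraries. Timp2 was at 16.1 and 17.5 CPM in siZfp871 against 7.47 and 7.67 in siSrrm4 (1.15, SE 0.15, adjusted p = 0.0125). Mmp15 was at 31.3 and 43.5 CPM in siZfp871 against 15.7 and 17.5 in siSrrm4 (1.17, SE 0.21, adjusted p = 0.0236), and for both genes siZfp871 lay above siSrrm4 without overlap. Col20a1, one of the collagens that attach to fibrils, was at 0.938 and 1.27 CPM in siZfp871 against 2.76 and 3.06 in siSrrm4 (−1.39, SE 0.27, adjusted p = 0.0296).

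Fn1 and Fbln1, called in siZfp871 against siNT, also differed between the knockdowns. Fn1 was at 264 and 233 CPM in siZfp871 against 424 and 412 in siSrrm4 (log2 fold change −0.75, SE 0.10, adjusted p = 0.0129), and the siSrrm4 values lie between those of siZfp871 and siNT. Fbln1 was at 181 and 193 CPM in siZfp871 against 284 and 263 in siSrrm4 (−0.55, SE 0.09, adjusted p = 0.0193). Itga1 was higher, at 55.4 and 54.6 CPM in siZfp871 against 35.7 and 30.1 in siSrrm4 (0.74, SE 0.16, adjusted p = 0.0372). None of the 3 genes overlapped between the knockdowns.

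Col7a1, the collagen of anchoring fibrils, was at 9.36 and 9.89 CPM in siZfp871 against 4.66 and 2.64 in siSrrm4 (log2 fold change 1.40, SE 0.28, adjusted p = 0.0314). Its siNT values, 6.87 and 5.97 CPM, lay between them. Smaller calls were Adamts4, an aggrecan-cutting protease (0.43, adjusted p = 0.0363), the ceramide transfer protein gene Col4a3bp (0.41, adjusted p = 0.0455), and Itgb5, partner of Itgav in a vitronectin receptor (−0.38, adjusted p = 0.0439). Not called, though without overlap and past a log2 fold change of 1 in either direction, were Lama2 (−1.61, adjusted p = 0.130), Col2a1 (−1.27, adjusted p = 0.117), Itga2 (−1.21, adjusted p = 0.103) and Col14a1 (−1.20, adjusted p = 0.180). Lama2, Fn1 and Itga1 share 631, 292 and 685 exon bases with other annotated genes. With only the 4 libraries compared 11 members were called, and Adamts4 missed the threshold (adjusted p = 0.0542); leaving out siSrrm4 library a left 5 calls, and leaving out siSrrm4 library b or either siZfp871 library left 0.

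Other matrix genes were taken from lists outside the 77. Of 20 collagen processing genes tested, 2 were called higher and 1 lower in siSrrm4 against siNT, where 1.41% of all genes were called higher and 3.29% lower. In siZfp871 against siNT 0 of the 20 were called, against 2.89% of all genes, and in siZfp871 against siSrrm4 1 was higher and 2 lower, against 5.53% and 5.57% of all genes. The lists were not tested for a difference between the knockdowns. The 3 genes called in siSrrm4 against siNT, Lepre1, Leprel2 and Leprel4, belong to the Leprecan family of collagen prolyl hydroxylases. Lepre1 was at 39.5 and 41.9 CPM in siSrrm4 against 17.5 and 14.6 in siNT (log2 fold change 1.34, SE 0.12, adjusted p = 0.0184). Leprel2 was at 42.1 and 34.0 CPM in siSrrm4 against 23.2 and 21.8 in siNT (0.76, SE 0.13, adjusted p = 0.0341). Leprel4, which lacks the enzyme activity, was at 14.4 and 9.78 CPM in siSrrm4 against 23.7 and 25.2 in siNT (−1.01, SE 0.19, adjusted p = 0.0412). For each of the 3 genes siSrrm4 did not overlap siNT.

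Of 24 tested proteoglycan and matricellular genes, 3 fell in siSrrm4 against siNT (3.29% of all genes fell): the latent TGF-beta binding protein Ltbp3 (log2 fold change −1.16), the integrin ligand Tgfbi (−1.11) and the heparan sulfate proteoglycan agrin, Agrn (−0.53). In siZfp871 against siNT, Tgfbi (−1.47) and Agrn (−0.71) fell and Efemp2, a fibulin-family gene, rose (0.88), where 2.14% of all genes fell and 0.751% rose. In siZfp871 against siSrrm4, 2 were higher and 0 lower, against 5.53% and 5.57% of all genes. Of 24 genes on the cell side of matrix adhesion, 4 fell in siSrrm4 against siNT, again beside 3.29% of all genes: Parvb, Lims1 and Tns1, which link integrins to actin, and Cd151, a tetraspanin that binds laminin receptors. Their log2 fold changes were −1.20, −0.58, −1.41 and −0.88, in the order Parvb, Lims1, Tns1, Cd151. None of these 24 was called in siZfp871 against siNT (2.89% of all genes). In siZfp871 against siSrrm4, 6 were higher and 1 lower, against 5.53% and 5.57% of all genes.

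The integrin exon with the widest range over the series was in Itga6. This 130-nt exon (chr2:71691591-71691720, mm9) matches exon 25 of 26 of a GENCODE M21 protein-coding transcript. The exon holds the stop codon of one cytoplasmic tail, commonly called the A variant, and skipping it gives the other tail, the B variant. The stretches below (GRCm38, plus strand) are shown because they carry the switch in the cytoplasmic tail: the first runs through the exon, in capitals, to its stop codon, and the second joins the flanking exons.
Included: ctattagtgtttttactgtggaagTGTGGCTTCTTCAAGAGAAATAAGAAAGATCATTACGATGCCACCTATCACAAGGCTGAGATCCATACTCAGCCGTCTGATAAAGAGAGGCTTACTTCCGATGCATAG
Skipped: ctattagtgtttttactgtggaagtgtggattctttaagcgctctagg
Its PSI in the first experiment was 7.08 in siMbnl (interval 4.73 to 10.01, 398 reads), 16.6 in siNacc1 (13.9 to 19.7, 672 reads) and 68.9 in siNT (66.1 to 71.7, 1073 reads). Mbnl1 was at a lower level in siNacc1 than in siNT, as given above, and its part in the siNacc1 value was not tested. Inclusion was the major form in siNT and the minor one in both knockdowns, with differences of −61.8 and −52.3 points. It was the 1 exon of 103 member exons, in 26 genes, to pass the size rule in each comparison (at least 20 reads in all 3 libraries, 20 points and intervals that do not overlap). The same rule was passed by 0.534% of all 36175 exons in siMbnl (0.323% lower) and 0.498% in siNacc1 (0.37% lower). In siNacc1, 3 member exons differed from siNT by 20 points or more, the Itga6 exon among them. The others were in Adamts6: a 146-nt exon (PSI 78.6 in siNacc1, 100 in siNT) and an 89-nt exon (57.7 in siNacc1, 85.2 in siNT). Both missed the rule because their intervals overlapped, on 25 to 41 reads. With 1 library per group these differences have no replicate check.

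In the second experiment the same exon was not called in any comparison. Its PSI was 82.7 and 84.6 in siSrrm4, 67.5 and 56.1 in siZfp871, and 66.2 and 66.8 in siNT. Both siSrrm4 libraries lay above all others (difference from siNT 17.1 points, adjusted p = 0.396; siZfp871 minus siSrrm4 −21.8 points, adjusted p = 0.853). Both siNT groups, first and second, lay between 66.2 and 68.9.

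Fibronectin also had a variable exon. Its 273-nt exon (chr1:71660337-71660609, mm9) matches exon 25 of 46 of a GENCODE M21 coding transcript, and encodes a whole fibronectin type III repeat that is commonly left out in adult tissues. PSI was 81.7 and 88.8 in siSrrm4, 97.3 and 97.7 in siZfp871, and 98.02 and 96.3 in siNT. The siSrrm4 libraries were below the other 4, and the difference from siNT, −11.9 points, missed the threshold (adjusted p = 0.0995). First-experiment PSI was 99.4 in siMbnl (98.6 to 99.8), 88.1 in siNacc1 (85.6 to 90.3) and 98.8 in siNT (97.9 to 99.4). The siNacc1 interval lay below that of siNT, but the difference, −10.7 points, was under the size rule. In the authors' deposited table this exon is marked as differential in siNacc1.

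A 126-nt exon of Itga7 (chr10:128391002-128391127, mm9) was included at a PSI of 97.3 and 93.3 in siSrrm4, 84.1 and 82.8 in siZfp871, and 85.5 and 82.6 in siNT (difference from siNT 11.3 points, adjusted p = 0.825). It was at 97.6 in siMbnl, 80.0 in siNacc1 and 96.9 in siNT in the first experiment, on 54 to 81 reads. The authors' deposited table marks it as differential in siNacc1. Differences of 10 points or more without overlap, which were not called, were also seen for a 78-nt exon of Col4a3bp (31.6 and 40.1 in siZfp871 against 44.9 and 51.6 in siNT), a 60-nt exon of Itgb3bp and an 81-nt exon of Adamts6. In all, 9.43% of member exons differed so in siSrrm4 against siNT and 7.55% in siZfp871 against siNT, against 4.48% and 4.06% of all exons. In siZfp871 against siSrrm4 it was 9.43%, against 4.19% of all exons.

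**Figure D4:**
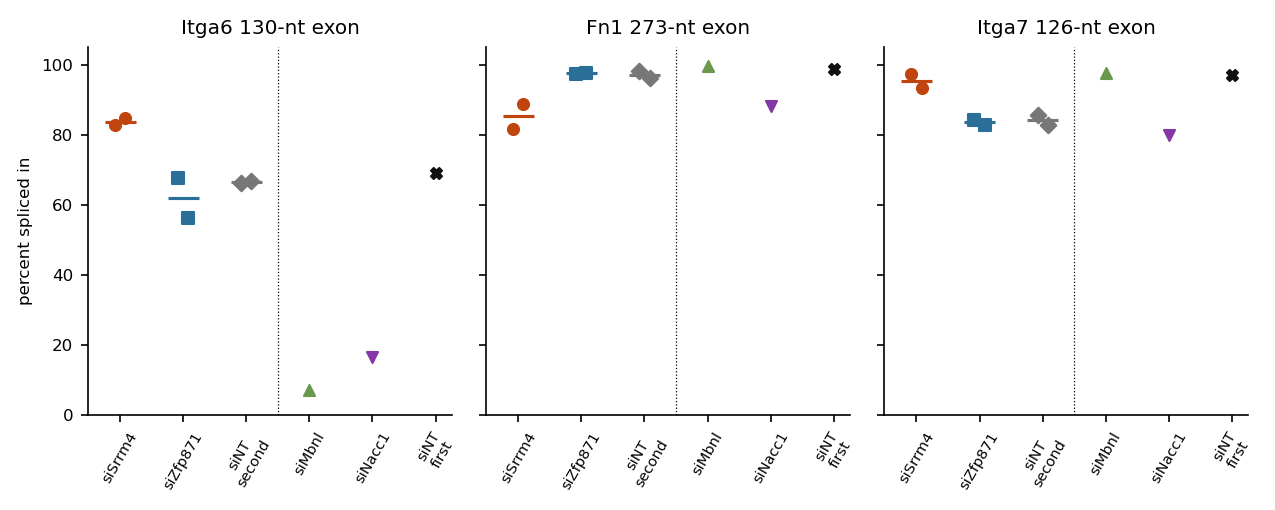
PSI (percent) of the Itga6 130-nt exon, the Fn1 273-nt exon and the Itga7 126-nt exon by group, 1 point per library; horizontal lines are means of the 2 libraries of a group, and the dotted line separates the second experiment (left of it) from the first. For Itga6, siMbnl lies at 7.08 and siNacc1 at 16.6, while siNT lies at 66.2 to 68.9 in both experiments.

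In the first experiment, knockdown of Nacc1 was accompanied by lower levels of matrix and integrin genes. Here a member counted from a log2 fold change of 1 in either direction, given 50 or more counts in either library; with 1 library per group this is a description with no test. Of 57 members with enough counts 10 were past this size, 17.5%, all lower, against 3.38% of all 11580 genes (2.97% lower, 0.406% higher). Below 0 were 45 of the 57, and their median log2 fold change was −0.33, against 0.01 over all genes. Of 10 basement membrane genes 9 were below 0, with a median of −0.48, and all 4 beta subunits and all 4 TIMPs were below 0, with medians of −0.77 and −0.93, although Timp1 was at −0.02. Below 0 were also 7 of 9 alpha subunits (median −0.16), 7 of 10 other collagens (−0.17), 4 of 6 metalloproteinases (−0.36), 2 of 3 ADAMTS genes (−0.27) and both fibulins (−0.62). Of 4 fibrillar collagens 2 were below 0, with a median of 0.03.

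The 10 genes span several roles. Adamts4 showed the largest difference, at 10.9 CPM in siNacc1 (95% exact Poisson interval 10.1 to 11.8) against 39.4 in siNT (37.8 to 40.9), a log2 fold change of −1.84. Timp2 was at 2.78 CPM in siNacc1 (2.38 to 3.24) against 9.86 in siNT (9.10 to 10.7), and Timp3 at 1.00 in siNacc1 (0.763 to 1.29) against 3.10 in siNT (2.68 to 3.57). Among these 3 genes no interval in siNacc1 overlapped that in siNT.

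The receptor subunits past the size rule were Itgb3, which forms a fibronectin and vitronectin receptor (log2 fold change −1.29), the laminin receptor subunit Itga3 (−1.27), the collagen receptor subunit Itga1 (−1.20) and Itgb4, the partner of Itga6 in hemidesmosomes (−1.19). Itga1 was at 15.1 CPM in siNacc1 (14.2 to 16.2) against 34.9 in siNT (33.5 to 36.4). The matrix chains were the laminin alpha chain Lama5 (−1.28), the fibril collagen Col24a1 (−1.02) and Col7a1 (−1.01). Lama5 was at 6.68 CPM in siNacc1 (6.04 to 7.37) against 16.3 in siNT (15.3 to 17.3).

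Both type IV chains were lower in siNacc1 but under the size rule. Col4a1 was at 114 CPM in siNacc1 against 176 in siNT (log2 fold change −0.63), and Col4a2 at 174 in siNacc1 against 331 in siNT (−0.93). Itgb1 was at 752 CPM in siNacc1 against 960 in siNT (−0.35), and Fn1 at 456 in siNacc1 against 557 in siNT (−0.29).

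The lists outside the 77 had genes past the size rule in siNacc1 too, where 2.97% of all genes were past it on the lower side. Of 19 collagen processing genes with enough counts, 3 were past the size rule, all lower: Leprel4 (log2 fold change −1.28), the chaperone Fkbp10 (−1.21) and the prolyl hydroxylase subunit P4ha1 (−1.02). Of 20 proteoglycan and matricellular genes 4 were past it on the lower side: Cyr61 (−1.32), the syndecan Sdc3 (−1.31), perlecan, Hspg2 (−1.30), and Ltbp3 (−1.11). Perlecan was at 86.9 CPM in siNacc1 against 214 in siNT. Of 23 genes on the cell side of adhesion 2 were past it on the lower side, Fermt3 (−1.37) and Tln1 (−1.18), which activate integrins. The median log2 fold changes of these 3 lists were −0.37, −0.52 and −0.34, in the order given, against 0.01 over all genes. None of these lists had a gene past the rule on the higher side. Among other cell types' markers, Acta2 (−1.36), Pdgfrb (−1.61) and Erbb3 (−1.38) were past the rule on the lower side in siNacc1; the 11 mesenchymal markers summed to 4.55 CPM in siNacc1 against 8.95 in siNT, and their part in these differences was not tested.

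In siMbnl 3 members were past the size rule on the higher side and 1 on the lower. Together they were 6.78% of 59, against 1.02% of all 11604 genes (0.758% higher, 0.259% lower). Itgb4 was at 4.40 CPM in siMbnl (interval 3.84 to 5.01) against 2.10 in siNT (1.76 to 2.49), a log2 fold change of 1.05. The transmembrane collagen Col23a1 was at 2.17 CPM (1.79 to 2.61) in siMbnl against 1.03 (0.798 to 1.32) in siNT, a change of 1.05. Col28a1 was at 1.03 CPM (0.769 to 1.34) in siMbnl against 0.254 (0.145 to 0.413) in siNT, a change of 1.88 on 53 and 16 counts. Only its siMbnl library reached the 50 counts of the size rule, so its entry already required a high count there. The intervals of Col28a1 therefore cannot test a difference.

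The member past the rule on the lower side in siMbnl was Timp3, at 1.22 CPM (0.938 to 1.56) against 3.10 in siNT (2.68 to 3.57), a log2 fold change of −1.32. Itgb4 shares 537 of its 7015 exon bases with a noncoding gene on the opposite strand. The members' median was 0.14, against −0.01 over all genes, and 26 of 59 were below 0. None of the collagen processing, proteoglycan or adhesion genes was past the rule in siMbnl; among cell type markers Acta2 was lower (−3.06) and Cd68 higher (1.21).

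**Figure D5:**
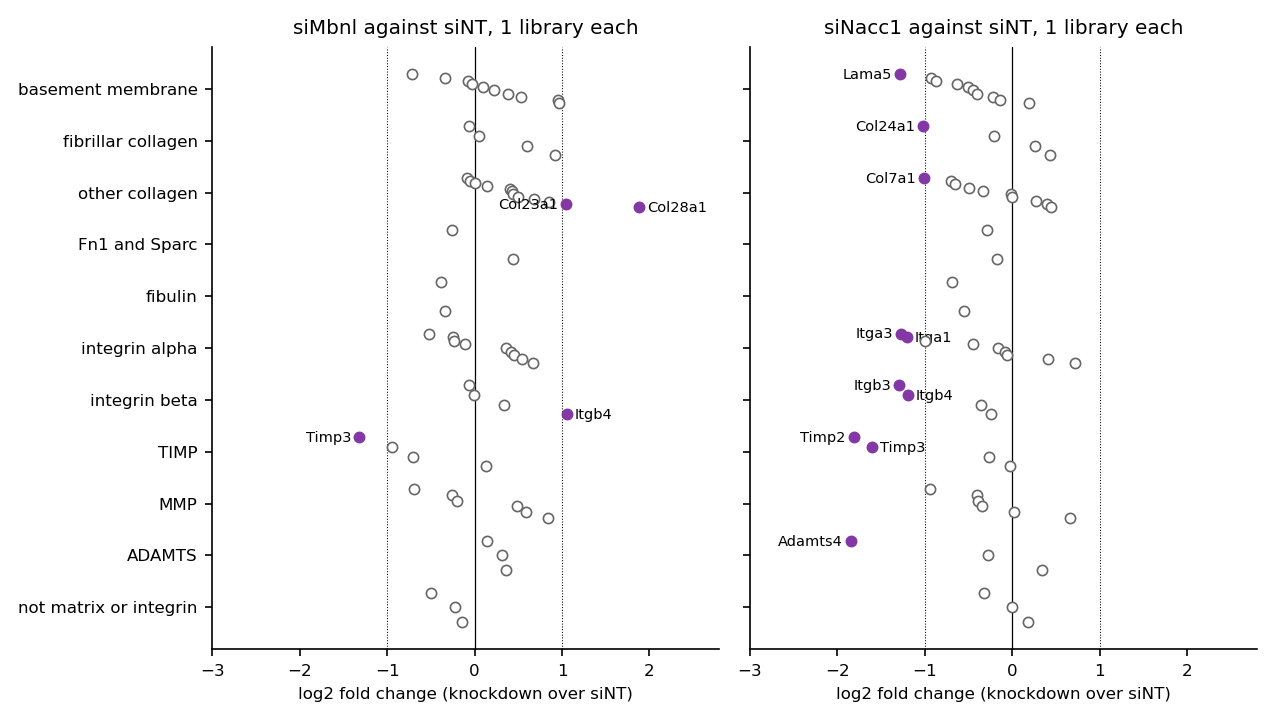
Log2 fold change of members with at least 50 counts in siMbnl against siNT (left, 59 genes) and siNacc1 against siNT (right, 57 genes), 1 point per gene in rows by role and 1 library per group; dotted lines mark a size of 1 and filled, named points are past it. All 10 filled points for siNacc1 are below 0, from Adamts4 at −1.84 to Col7a1 at −1.01.

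The members not tested in the second experiment were 12, with highest counts of 11 to 32 in any library. They include the laminin chains Lama3, Lamb1 and Lamc3, Nid2, Col15a1, Col1a1 and the integrin subunit Itgb7. In siMbnl, Lamc3 had 19 counts against 4 in siNT and Lama3 16 against 4. Both were under the 50 counts of the size rule. The 95% Poisson intervals of CPM did not overlap for either gene, but they cover counting error only. Lamc3 reached the count limit for members in siMbnl alone, so its choice as a member already required a high count there. Its intervals therefore cannot test a difference. Lama3 also reached that limit in both siSrrm4 libraries, with 11 counts in each.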

How the data were processed

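Raw read counts per gene and cRPKM (an RPKM level) were deposited by the authors, per the file headers; the submitters' processing notes give mm9, CASAVA 1.8 and edgeR, with aligner, counting program and cRPKM correction not given in the sources used here. Deposited vast-tools tables, per the file headers, hold inclusion and exclusion reads per exon, from which PSI, in percent, was computed; the authors' deposited columns of log2 fold change, FDR (an adjusted p-value) and differential splicing were copied where named. Letters a and b could not be tied to single samples, so from the second experiment's tables only counts and reads per library and the authors' mean cRPKM per group were read; 20 columns of per-library values were not used, 2 of them of a trimmed control library. The members, gene lists, thresholds and rule for named genes were chosen with earlier results of these data known.

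In R 4.3.3, counts of the second experiment were tested with edgeR 4.0.16 (filterByExpr, TMM, quasi-likelihood) in 1 fit of 6 libraries with 3 contrasts; adjusted p is Benjamini-Hochberg over all 12378 genes, called under 0.05, and fold changes carry standard errors (SE). Exons needed 10 reads in each library and a PSI of 2 to 98 in 1 of them; the edgeR model of both kinds of read held library terms and group terms for inclusion, and a call also needed 10 points. CPM are counts scaled to TMM library sizes, normalized separately in each experiment. The first experiment (prior count 2) has no test. Named were called members (at most 12 per contrast by size; Itgb5, beyond this, was added after its value was seen), uncalled members with a log2 fold change of 1 or more in either direction, 50 or more counts and no overlap of groups (at most 6), members past the size rule, and exons by the same logic. Scripts were tested on simulated data. Exons were matched to GENCODE M21 (GRCm38) by length and flanking intron lengths; promoters are RefSeq's. Alternatives used limma 3.58.1 and DESeq2 1.42.0.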

Additional observations from a re-analysis of the deposited data

How the results depend on the processing

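None of the 372 refitted fold changes of named members changed sign. For the counts of called members in siSrrm4 against siNT, siZfp871 against siNT and siZfp871 against siSrrm4 (6, 5 and 13), DESeq2's Wald test gave 11, 8 and 17, no filter on low counts 7, 7 and 12, and DESeq2 size factors the same counts as TMM. The fit to only the 4 libraries compared gave 0, 5 and 11. Leaving out 1 library at a time gave 0 to 2, 0 to 1 and 0 to 5 calls. A replicate block on the letters gave 23, 19 and 38. The shares of all genes called at these settings are not given here. These counts therefore describe only the dependence on the setting and are not a result about the members. Libraries of equal letter deviated together (r = 0.749, 0.662 and 0.637), but nothing in the labels ties a letter to a shared day or culture. The exon count in siSrrm4 against siNT was 1 with 20 reads or with the replicate block (adjusted p = 0.0256), 0 with limma, and 0 to 0 with 1 library left out; the added alternatives for single exons were chosen after seeing the data. In the first experiment the 4 members past the size rule in siMbnl became 8 with a minimum of 10 counts, 1 with 200 and 3 to 6 otherwise, and the 10 in siNacc1 became 7 to 14. With a rule of 10 points, 2 member exons passed in siMbnl and 2 in siNacc1. The shares of all genes and exons that passed these changed rules are likewise not given here. Depth left 12 members, with at most 32 counts in any library, untested. The causes of these differences were not tested.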

Other observations

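Some members differed between the lettered libraries of the second experiment in all 3 groups, which belongs to no comparison of the study. Mmp11, a secreted metalloproteinase, was at 23.0, 19.1 and 24.1 CPM in library a of siSrrm4, siZfp871 and siNT, and at 11.11, 11.14 and 11.04 CPM in library b. The basement membrane collagen Col18a1 was at 5.77, 5.63 and 5.81 CPM in library a and at 3.18, 2.98 and 2.796 CPM in library b of these groups. Lama5 was at 9.96, 11.6 and 12.3 CPM in library a and at 2.32, 6.04 and 3.84 CPM in library b. These 3 genes were chosen after their values were seen.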
